A study of Mus musculus with 8 samples.

Results

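The cathepsin genes described here are 10 genes of lysosomal proteases, namely Ctsa, Ctsb, Ctsc, Ctsd, Ctse, Ctsh, Ctsk, Ctsl, Ctss and Ctsz. They were taken by name, and all 10 were found among the 47937 gene IDs of the count tables. Cathepsins are made as inactive precursors, are sorted to endosomes and lysosomes and are activated there at acidic pH. Ctsb, Ctsc, Ctsh, Ctsk, Ctsl, Ctss and Ctsz encode cysteine proteases, Ctsd and Ctse aspartic proteases, and Ctsa a serine carboxypeptidase. In antigen-presenting cells they degrade endocytosed protein and, above all cathepsin S, trim the invariant chain that blocks the groove of MHC class II molecules, while macrophages are known for a high content of several of them.

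The RNA came from bone marrow-derived dendritic cells (BMDCs), which are grown from mouse bone marrow with the growth factor GM-CSF (20 ng/ml) for 8 days and are a mixture of dendritic cells and macrophage-like cells. The 3xGrk-/- cells, labelled Grk 3xKO, came per the study's results from mice that were Grk3-/- and carried Vav-iCre with floxed alleles (fl/fl) of Grk2 and Grk6. Per its methods, mice were adult and on a C57BL6/J background. The 3xGrk-/- mice lack G-protein coupled receptor kinase 3 in all cells and lose kinases 2 and 6 through a Cre recombinase that is active from early blood precursors on. The wild-type (WT) controls were Cre-negative. Cells of each genotype were either left unstimulated or stimulated with lipopolysaccharide (LPS, 20 ng/ml), a bacterial ligand of Toll-like receptor 4 that matures dendritic cells, for 24 h, and each of the 4 groups had 2 libraries. The methods speak of RNA extracted in technical triplicates, which does not match the 2 libraries of each group analysed here, and the labels do not name separate cultures or animals, so that p-values measure only the spread between these libraries, which may be technical.

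The libraries held 4713305 to 6933358 counted reads each. Of the targeted kinases, Grk2 was at 318 and 323 CPM (counts relative to the scaled library size) in WT against 152 and 146 CPM in 3xGrk-/- libraries without LPS, and Grk6 at 84.9 and 83.8 against 37.2 and 37.0 CPM. Grk3 was lower by less, with 336 and 343 against 269 and 263 CPM. Reads of the exons that remain after a deletion still count, so these values check the labels only in part. With LPS all 3 kinases were again lower in both 3xGrk-/- libraries than in both WT libraries. The ribosomal RNA-overlapping gene Gm42418 took 2.16% of the counts in replicate 2 of LPS-stimulated 3xGrk-/- cells and at most 0.638% in the other libraries. In every group its share was higher in replicate 2 than in replicate 1. Without LPS it was 0.638% against 0.437% in WT and 0.517% against 0.273% in 3xGrk-/- cells. With LPS it was 0.600% against 0.468% in WT and 2.16% against 0.443% in 3xGrk-/- cells. Because the LPS-stimulated and the unstimulated libraries were deposited as separate tables, any difference in handling between the tables cannot be told apart from the response to LPS.

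All 10 cathepsin genes, against 44.7% of the 12000 genes tested, differed between unstimulated 3xGrk-/- and WT BMDCs by the quasi-likelihood test of edgeR (Benjamini-Hochberg adjusted p below 0.05, all genes). Ctsl, Ctsk, Ctsd, Ctsb, Ctss, Ctsa, Ctsz and Ctsc were higher in 3xGrk-/- cells, 8 of 10 genes, against 22.1% of all genes, and Ctse and Ctsh were lower, 2 of 10 against 22.7%. With LPS, 8 of the 9 cathepsin genes that could be tested were higher in 3xGrk-/- cells, the same 8, against 24.7% of 11830 genes (48.6% in either direction), and Ctsh did not pass the test. The median log2 fold change of the cathepsin genes was 0.82 without and 1.72 with LPS, whereas the median of all genes tested was 0.00 and -0.01. In bulk RNA a larger share of cells that express a gene and more of its RNA per cell cannot be told apart.

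The size of the difference varied widely between members. Without LPS, 3 members had log2 fold changes of 2 or more towards 3xGrk-/- (Ctsl, Ctsk and Ctsd), against 1.79% of all genes tested, and 4 had them with LPS (these and Ctsb), against 4.58%. For all members tested, the libraries of the genotypes did not overlap, as was the case for 69.2% of all genes without and 72.6% with LPS. Since many genes were called in these comparisons, a call alone says little about a member, and sizes are given below as log2 fold changes ± SE. The libraries of a group were very alike, with a common biological coefficient of variation (the relative spread between replicates) of 0.0306 without and 0.0573 with LPS. With this coefficient set to 0.4 instead, a wide spread of the kind assumed for unrelated human subjects and not for inbred mice, the calls of Ctsl, Ctsk and Ctsd remained higher without LPS and that of Ctse lower, and with LPS those of Ctsl, Ctsk, Ctsd and Ctsb remained.

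**Figure D1:**
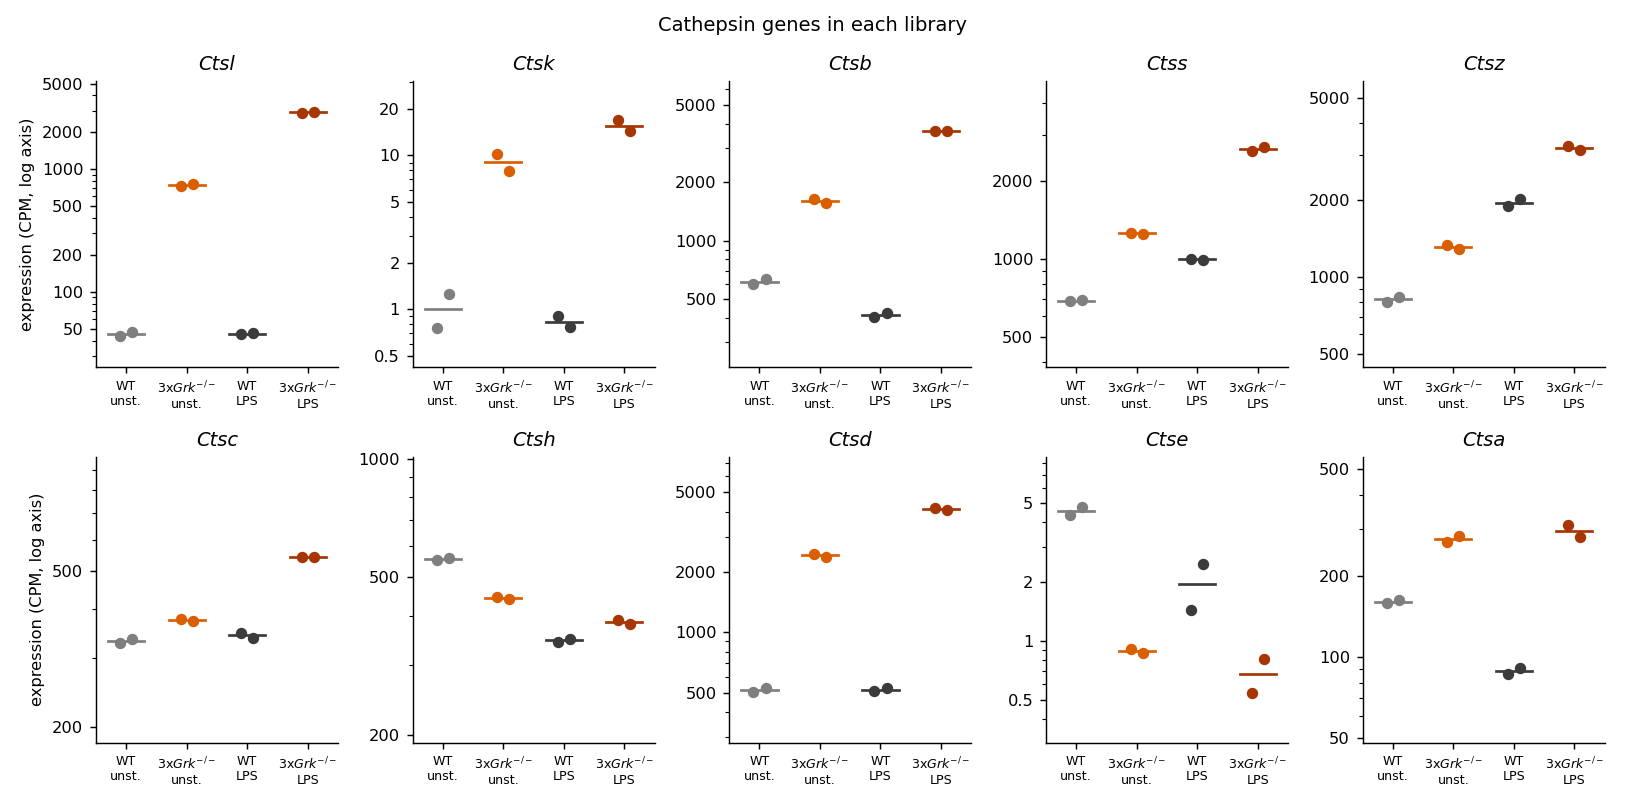
Expression of the 10 cathepsin genes in CPM on a log axis whose range differs between panels. Points are single libraries and lines the mean of the 2 libraries of a group (unst., unstimulated). Ctsl lay between 43.7 and 46.6 CPM in all 4 WT libraries and between 733 and 2912 CPM in the 3xGrk-/- libraries, while Ctsh lay between 343 and 561 CPM and Ctsc between 328 and 542 CPM in all libraries and Ctse lay highest in unstimulated WT cells.

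Levels were compared between members per kilobase of transcript. In unstimulated WT cells the order was Ctsz (569.6 ± 18.1 CPM per kilobase, SD, n = 2), Ctss (508 ± 3.32), Ctsh (345 ± 2.80), Ctsd (242 ± 6.61), Ctsc (133 ± 1.93), Ctsb (129.6 ± 5.31), Ctsa (43.9 ± 0.761), Ctsl (22.9 ± 1.06), Ctse (2.15 ± 0.140) and Ctsk (0.671 ± 0.238). Only the libraries of Ctsc and Ctsb overlapped among neighbours of this order. In LPS-stimulated 3xGrk-/- cells the order per kilobase was Ctsz (2223 ± 46.3), Ctss (1966 ± 43.4), Ctsd (1941 ± 29.8), Ctsl (1474 ± 4.71), Ctsb (774 ± 4.03), Ctsh (238 ± 3.94), Ctsc (217 ± 0.339), Ctsa (80.8 ± 5.53), Ctsk (10.4 ± 1.18) and Ctse (0.318 ± 0.0874), where Ctss and Ctsd overlapped. Ctsl thus stood at rank 8 of the 10 genes in WT cells with or without LPS and at rank 4 in 3xGrk-/- cells with or without LPS. Ctsd led in unstimulated 3xGrk-/- cells with 1135 ± 18.8 CPM per kilobase, ahead of Ctss (926 ± 6.77) and Ctsz (909 ± 22.4), whose libraries overlapped. With the union of all annotated exons as the length, Ctsl stood at rank 5 in 3xGrk-/- cells behind Ctsb, and the top 3 of these groups were the same except that Ctsd took the third rank in unstimulated WT cells.

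Together, the 10 genes had 3679 and 3799 CPM in WT and 8509 and 8349 CPM in 3xGrk-/- libraries without LPS, and 4631 and 4784 CPM in LPS-stimulated WT libraries and 17856 and 17757 CPM in LPS-stimulated 3xGrk-/- libraries. The make-up of this sum also differed between the groups. Ctsl held 1.21% ± 0.0283 (SD, n = 2) of the reads of the 10 genes in unstimulated WT and 16.3% ± 0.116 in LPS-stimulated 3xGrk-/- cells, and Ctsd 13.8% ± 0.0640 and 23.2% ± 0.264. In LPS-stimulated WT cells, Ctsz alone held 41.6% ± 0.899 of these reads, and Ctsl held 0.965% ± 0.00352.

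Promoters were searched in the RefSeq promoter table (GRCm38.p6, windows of 300 bases from 250 before to 50 after a transcript start), which covered 7 of the 10 genes in 8 windows, and the stretches shown are those with a match to CACGTG before the start. CACGTG reads the same on both strands and is the core of the element bound by TFEB, a transcription factor of lysosomal genes. It was present in 7.15% of all 32851 windows and in windows of Ctsa, Ctsd and Ctsl, 3 of the 7 genes. The longer form TCACGTG, searched on both strands and overlapping the first motif, was in 3.77% of all windows and in those of Ctsa and Ctsd. A longer palindrome around the same core, held by 0.326% of all windows, was in 0 of the 8 member windows, and a motif of interferon-responsive factors, added after the Ctss sequence had been seen and held by 3.44% of all windows, was in that of Ctss only. In the following 30-base stretches, written 5′ to 3′ on the strand of the gene, capitals mark CACGTG.
Ctsl, chr13:64370739-64370768, minus strand: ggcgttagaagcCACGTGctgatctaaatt
Ctsd, chr7:142387908-142387937, minus strand: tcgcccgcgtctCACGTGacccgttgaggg
Ctsd, chr7:142388048-142388077, minus strand: tccccCACGTGacctgtatccagtcattct
Ctsa, chr2:164833743-164833772, plus strand: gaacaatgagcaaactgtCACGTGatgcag
The motif lay 231 bases before the start in Ctsl, 93 and 240 bases before the start in Ctsd and 7 bases before the start in Ctsa, where a further match after the start is not shown. The stretches of Ctsl and Ctsa and the first of Ctsd overlapped annotated exons, and the second of Ctsd overlapped none. These matches describe the letters of the windows and no binding was measured.

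Ctsl (ENSMUSG00000021477, chr13:64359337-64370890, minus strand) encodes cathepsin L, an endopeptidase that also processes other cathepsins and, in thymic epithelium, the invariant chain. It had 43.7 and 46.6 CPM in the unstimulated WT libraries and 733 and 751 CPM in those of 3xGrk-/- cells. With LPS it had 44.8 and 46.0 CPM in WT and 2899 and 2912 CPM in 3xGrk-/- libraries. Ctsl thus lay in a narrow range in all 4 WT libraries and was higher in every 3xGrk-/- library, most so with LPS. The log2 fold change between genotypes was 4.03 ± 0.05 without LPS, a 16.3-fold difference whose adjusted p was below the smallest value that is written out, and 5.99 ± 0.07 with LPS, a 63.4-fold difference with an adjusted p of 2.75e-23. Ordered from the highest log2 fold change down, Ctsl stood at place 32 of the 12000 genes tested without LPS and at place 33 of the 11830 tested with LPS. The response to LPS was 0.02 ± 0.07 in WT cells (adjusted p = 0.868) and 1.98 ± 0.05 in 3xGrk-/- cells (adjusted p = 4.43e-24), and these responses differed by 1.96 ± 0.08 (interaction, adjusted p = 4.17e-17). Of the 5 stromal markers given below, 4 were called higher between genotypes with LPS, against 24.7% of all genes, and 0 for the interaction. For the interaction, 12 of 12 macrophage markers were called higher, against 16.5% of all genes. The part of either set of markers in the interaction of Ctsl was not tested.

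Ctsk (ENSMUSG00000028111, chr3:95499256-95509362, plus strand) encodes cathepsin K, the collagen-degrading protease of osteoclasts. Ctss lies 17423 bases downstream of it on the same strand. It was nearly absent from WT cells, with 4 and 9 counts (0.760 and 1.27 CPM) without LPS and 5 and 5 counts (0.900 and 0.765 CPM) with LPS. In 3xGrk-/- cells it had 68 and 46 counts (10.2 and 7.99 CPM) without and 93 and 89 counts (16.9 and 14.4 CPM) with LPS. All 4 libraries of 3xGrk-/- cells therefore lay above all 4 of WT cells, but per kilobase far below Ctsl. The difference was 3.12 ± 0.33 in unstimulated cells (adjusted p = 2.64e-20) and 4.22 ± 0.32 after stimulation (adjusted p = 3.69e-10), and LPS raised Ctsk by 0.77 ± 0.18 in 3xGrk-/- cells (adjusted p = 6.02e-04). At this depth no change with LPS was detectable in WT cells (-0.33 ± 0.59, adjusted p = 0.652), nor a difference between the responses (1.10 ± 0.62, adjusted p = 0.187).

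Ctsb (ENSMUSG00000021939, chr14:63122462-63145923, plus strand) encodes cathepsin B, an abundant protease of lysosomes. It had 597 and 632 CPM (WT) and 1636 and 1571 CPM (3xGrk-/-) without LPS, and it had 402 and 423 CPM in LPS-stimulated WT and 3656 and 3683 CPM in LPS-stimulated 3xGrk-/- libraries. The 4 groups did not overlap, with LPS lowering Ctsb in WT cells and raising it in 3xGrk-/- cells. The responses were -0.56 ± 0.04 (adjusted p = 9.99e-12) and 1.20 ± 0.04 (adjusted p = 1.62e-19), and they differed by 1.76 ± 0.06 (interaction, adjusted p = 1.32e-18). Between genotypes the difference was 1.38 ± 0.03 without LPS, with an adjusted p too small to be written, and 3.14 ± 0.05 with LPS (adjusted p = 1.52e-20), so that the fold grew from 2.60 to 8.82.

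Ctss (ENSMUSG00000038642, chr3:95526786-95556403, plus strand) encodes cathepsin S, the main protease of invariant chain trimming in dendritic cells and macrophages. Its levels were 685 and 692 CPM in the unstimulated WT libraries and 1262 and 1249 CPM in those of 3xGrk-/- cells. After LPS they were 999.98 and 987 CPM in WT and 2622 and 2705 CPM in 3xGrk-/- libraries. Every LPS-stimulated library lay above the unstimulated libraries of its genotype, and every 3xGrk-/- library above all WT libraries. The difference between genotypes was 0.86 ± 0.03 in unstimulated cells (adjusted p = 1.93e-135) and 1.41 ± 0.05 after stimulation (adjusted p = 2.44e-15). LPS raised Ctss by 0.54 ± 0.04 in WT (adjusted p = 6.01e-12) and by 1.09 ± 0.04 in 3xGrk-/- cells (adjusted p = 6.64e-19), a difference of 0.55 ± 0.06 (interaction, adjusted p = 1.69e-08).

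Ctsz (ENSMUSG00000016256, chr2:174427493-174439039, minus strand) encodes cathepsin Z, also called X, a carboxypeptidase of myeloid cells. It was at 802 and 839 CPM (WT) and 1333 and 1288 CPM (3xGrk-/-) without LPS, and it had 1898 and 2021 CPM in LPS-stimulated WT and 3250.1 and 3156 CPM in LPS-stimulated 3xGrk-/- libraries. The groups did not overlap, and the step between genotypes was of like size with and without LPS. That step was 0.67 ± 0.03 without (adjusted p = 1.47e-86) and 0.70 ± 0.05 with LPS (adjusted p = 2.05e-10). LPS raised Ctsz by 1.27 ± 0.04 in WT (adjusted p = 6.43e-20) and 1.30 ± 0.04 in 3xGrk-/- cells (adjusted p = 2.89e-20). The difference of these responses was 0.03 ± 0.06 (interaction, adjusted p = 0.789), the smallest among the 10 genes.

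Ctsc (ENSMUSG00000030560, chr7:88278085-88310888, plus strand) encodes cathepsin C, a dipeptidyl peptidase that activates serine proteases of granules. It had 328 and 335 CPM (WT) and 377 and 373 CPM (3xGrk-/-) without LPS, and it had 347 and 338 CPM in LPS-stimulated WT and 540.4 and 542 CPM in LPS-stimulated 3xGrk-/- libraries. LPS-stimulated 3xGrk-/- cells stood apart, while the other 3 groups lay within a narrow range. The difference between genotypes was 0.17 ± 0.04 without LPS (adjusted p = 1.79e-04), which did not pass the test when libraries were scaled by their size only (adjusted p = 0.0826), and 0.65 ± 0.06 with LPS (adjusted p = 8.18e-09). The response to LPS was 0.06 ± 0.05 in WT (adjusted p = 0.312) and 0.54 ± 0.05 in 3xGrk-/- cells (adjusted p = 2.44e-10), and the interaction was 0.48 ± 0.07 (adjusted p = 3.94e-06).

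Ctsh (ENSMUSG00000032359, chr9:90054152-90076089, plus strand) encodes cathepsin H, an aminopeptidase. Unlike the other cysteine cathepsins among the listed members, it was lower in unstimulated 3xGrk-/- cells, with 446 and 442 CPM against 555 and 561 CPM in WT. With LPS it had 389 and 380.4 CPM in 3xGrk-/- and 343 and 350.0 CPM in WT libraries. WT cells thus lay above 3xGrk-/- cells without LPS and below them with LPS. The first difference was -0.34 ± 0.04 (adjusted p = 1.16e-16), and the second was 0.14 ± 0.06 and missed the threshold (adjusted p = 0.0588). It passed in a joint fit of the 8 libraries (adjusted p = 0.0220), without the filter on low counts (0.0407) and without replicate 1 or 2 of LPS-stimulated WT cells (0.0448 and 0.0149). LPS lowered Ctsh by a log2 fold change of -0.67 ± 0.05 in WT (adjusted p = 1.57e-12) and of -0.20 ± 0.05 in 3xGrk-/- cells (adjusted p = 0.00115), with an interaction of 0.47 ± 0.07 (adjusted p = 3.38e-06).

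Ctsd (ENSMUSG00000007891, chr7:142375911-142388038, minus strand) encodes cathepsin D, the principal aspartic protease of lysosomes. It had 505 and 525 CPM in the unstimulated WT libraries and 2443 and 2386 CPM in those of 3xGrk-/- cells. After LPS it had 508 and 525 CPM in WT and 4173 and 4083 CPM in 3xGrk-/- libraries. As with Ctsl, the WT libraries overlapped with and without LPS, and LPS-stimulated 3xGrk-/- cells were highest. The difference between genotypes was 2.22 ± 0.03 without LPS, with an adjusted p too small to be written, and 2.99 ± 0.05 with LPS (adjusted p = 2.03e-20). The response to LPS was 0.02 ± 0.04 in WT (adjusted p = 0.728) and 0.78 ± 0.04 in 3xGrk-/- cells (adjusted p = 8.26e-16), and the interaction 0.76 ± 0.06 (adjusted p = 2.20e-11).

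Ctse (ENSMUSG00000004552, chr1:131638306-131675505, plus strand) encodes cathepsin E, an endosomal aspartic protease. It was the only member that was markedly lower in 3xGrk-/- cells, with 6 and 5 counts (0.903 and 0.868 CPM) against 23 and 34 counts (4.37 and 4.79 CPM) in unstimulated WT cells. With LPS there were 3 and 5 counts (0.546 and 0.808 CPM) in 3xGrk-/- and 8 and 16 counts (1.44 and 2.45 CPM) in WT libraries. WT libraries lay above 3xGrk-/- libraries in both conditions, at low counts. The difference without LPS was -2.38 ± 0.41 (adjusted p = 3.41e-08). With LPS the gene fell below the filter on low counts. It was lower without that filter (-1.52, adjusted p = 0.0303), in a joint fit of the 8 libraries (-1.55, adjusted p = 0.0197) and without replicate 1 of LPS-stimulated WT cells (-1.84, adjusted p = 0.0187), but not without replicate 1 or 2 of LPS-stimulated 3xGrk-/- cells (adjusted p = 0.219 and 0.118). LPS lowered Ctse in WT cells (-1.20 ± 0.34, adjusted p = 0.00348), which did not pass with DESeq2 (-1.21, adjusted p = 0.0948) or without replicate 1 of LPS-stimulated WT cells (-0.89, adjusted p = 0.0671), and the response in 3xGrk-/- cells was -0.37 ± 0.66 (adjusted p = 0.662).

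Ctsa (ENSMUSG00000017760, chr2:164832873-164841032, plus strand) encodes cathepsin A, or protective protein, which also stabilises the lysosomal enzymes neuraminidase 1 and beta-galactosidase. It had 158 and 162 CPM (WT) and 268 and 281 CPM (3xGrk-/-) without LPS, and it had 86.0 and 90.4 CPM in LPS-stimulated WT and 309 and 280.3 CPM in LPS-stimulated 3xGrk-/- libraries. LPS lowered the level in WT cells to below that of every other library, while the 3xGrk-/- libraries overlapped with and without LPS. The difference between genotypes was 0.77 ± 0.05 without (adjusted p = 4.04e-55) and 1.72 ± 0.07 with LPS (adjusted p = 2.17e-14). The response to LPS was -0.85 ± 0.07 in WT (adjusted p = 6.41e-12) and 0.11 ± 0.06 in 3xGrk-/- cells (adjusted p = 0.111), and the interaction 0.95 ± 0.09 (adjusted p = 8.14e-10).

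**Figure D2:**
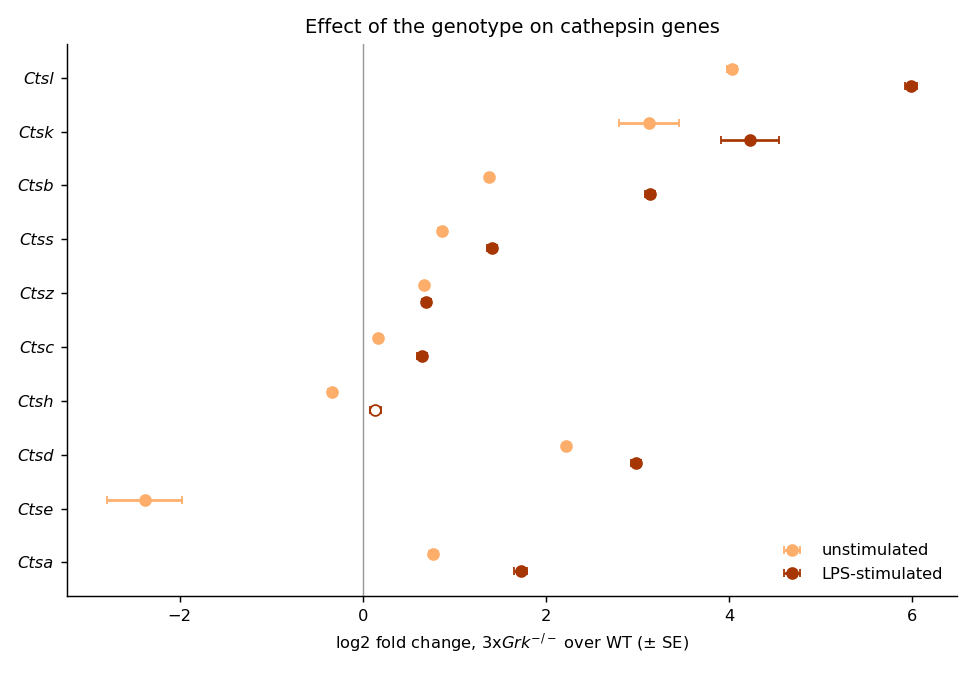
Log2 fold change of 3xGrk-/- over WT BMDCs for each cathepsin gene, unstimulated (light) and LPS-stimulated (dark), with bars of ± SE. Filled points passed an adjusted p of 0.05, and Ctse was not tested with LPS. Ctsl, Ctsk, Ctsd and Ctsb stood furthest to the right with LPS, at 5.99, 4.22, 2.99 and 3.14.

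In WT cells the number of members called after LPS, 6 of 10, was near the 60.3% of all genes called. Ctsz and Ctss were higher after LPS, 2 of 10 against 29.5% of the 12541 genes tested, and Ctsa, Ctsb, Ctsh and Ctse were lower, 4 of 10 against 30.8%. In 3xGrk-/- cells 7 of 10 were higher, against 28% of all genes, and only Ctsh was lower, against 27.4% (55.4% in either direction). The libraries with and without LPS did not overlap for 7 of 10 members in WT cells, against 78.1% of all genes, and for 9 of 10 in 3xGrk-/- cells, against 77.6%. With LPS, 0 of the 10 members rose by a log2 fold change of 2 or more in either genotype, and Ctsl in 3xGrk-/- cells came nearest at 1.98. Of all genes, 3.4% did in WT and 4.27% in 3xGrk-/- cells, so that 0 of 10 lay near these shares. The response to LPS was higher in 3xGrk-/- than in WT cells for 7 of 10 members (interaction higher), against 16.5% of all genes. These were Ctsa, Ctsb, Ctsc, Ctsd, Ctsh, Ctsl and Ctss. The interaction of the other 3 did not pass, at 0.03 ± 0.06 for Ctsz, 0.83 ± 0.76 for Ctse and 1.10 ± 0.62 for Ctsk. The sign of these 3 therefore says little, and the median interaction of all genes was 0.00. The median response of the members was -0.16 in WT and 0.78 in 3xGrk-/- cells, against -0.01 for all genes in both. Scaling by library size only moved the median response of all genes by -0.22 in both genotypes, and then Ctsc, Ctsd and Ctsl were also called lower in WT cells.

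**Figure D3:**
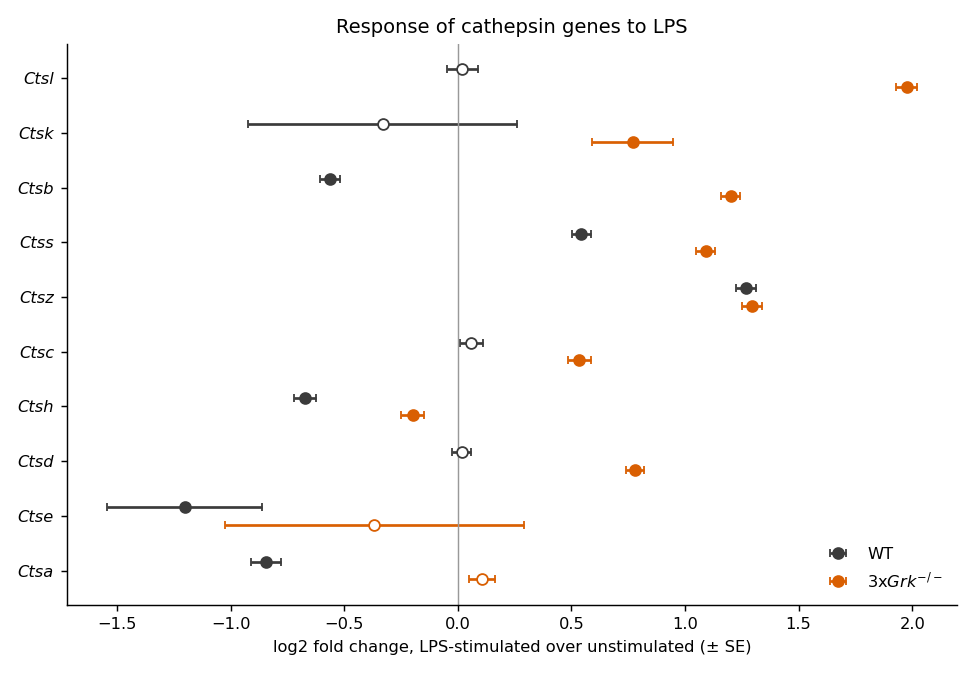
Log2 fold change of LPS-stimulated over unstimulated BMDCs for each cathepsin gene in WT (dark) and 3xGrk-/- cells (orange), with bars of ± SE and filled points for an adjusted p under 0.05. Ctsb lay at -0.56 in WT and 1.20 in 3xGrk-/- cells, whereas Ctsz lay at 1.27 and 1.30.

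Of 14 further genes of the cathepsin family, including napsin A and the placental cathepsins, 9 had no count in any group and 4 could be tested. Napsa, an aspartic protease related to cathepsin D, was lower in 3xGrk-/- cells, with 889 and 892 against 364 and 371 CPM without LPS (-1.28 ± 0.04, adjusted p = 1.96e-239) and 996 and 1054 against 317 and 301 CPM with LPS (-1.74 ± 0.06, adjusted p = 8.16e-16). Ctso was at 33.5 and 26.9 CPM in WT and 40.0 and 42.5 CPM in 3xGrk-/- libraries with LPS and was higher there (0.45 ± 0.12, adjusted p = 0.00393). In all, 0 of the 4 were higher and 2 (Napsa and Ctsf) lower without LPS, and 1 (Ctso) was higher and 2 (Napsa and Ctsg) lower with LPS, too few genes to set against the 22.1% higher and 22.7% lower of all genes without and 24.7% and 24% with LPS.

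Among the inhibitors of cathepsins and related proteases, 6 of 11 tested genes were higher and 3 lower in unstimulated 3xGrk-/- cells, and 4 of 12 were higher and 4 lower with LPS. Of all genes, 22.1% were higher and 22.7% lower without LPS and 24.7% and 24% with LPS, so that the counts with LPS lay near these shares. The most abundant, Cst3, which encodes the secreted cystatin C, was lower in 3xGrk-/- cells. It had 5120 and 5003 against 2824 and 2765 CPM without LPS (-0.86 ± 0.02, adjusted p = 1.18e-252) and differed by -0.61 ± 0.05 with LPS (adjusted p = 1.16e-09). The cytosolic cystatin B gene Cstb moved the other way, from 119 and 111 to 254 and 250.4 CPM without LPS (1.13 ± 0.05, adjusted p = 9.87e-103) and by 1.95 ± 0.07 with LPS (adjusted p = 6.04e-16). Of the stefin genes, whose copies are near-identical so that their reads may be split between them, Stfa3 was higher by 2.24 ± 0.21 without and 2.05 ± 0.27 with LPS, Stfa2l1 was higher by 0.80 ± 0.15 without LPS, and BC100530 was higher without LPS (0.73 ± 0.15) and lower with LPS (-0.67 ± 0.26). Serpinb1a and Serpinb9, inhibitors of granule serine proteases, differed by -1.31 ± 0.11 and -0.85 ± 0.06 with LPS. Without LPS they differed by -0.62 ± 0.12 and -0.36 ± 0.05.

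Of 15 genes that sort, activate or accompany cathepsins, 12 were higher and 1 lower in unstimulated 3xGrk-/- cells, and 13 were higher and 1 lower with LPS, against the same shares of all genes (22.1% and 22.7%, and 24.7% and 24%). Their median log2 fold change was 0.31 without and 0.95 with LPS. Igf2r, the large mannose 6-phosphate receptor that delivers precursors to lysosomes, had 52.4 and 57.9 against 127 and 134 CPM without LPS (1.22 ± 0.07) and 20.7 and 21.7 against 134 and 129 CPM with LPS (2.62 ± 0.10, adjusted p = 2.66e-15). Lgmn, the asparaginyl endopeptidase legumain that cleaves cathepsin precursors, was higher by 0.93 ± 0.06 and 1.47 ± 0.06, Galns, whose product is found in a complex with cathepsin A, by 0.74 ± 0.15 without LPS, and the lysosomal membrane protein gene Lamp1 by 0.59 ± 0.04 without LPS. Psap, which encodes the saposin precursor, went from 5020 and 5076 to 1931 and 2016 CPM with LPS in WT cells and from 4771 and 4672 to 8928 and 8806 CPM in 3xGrk-/- cells. It was slightly lower in 3xGrk-/- cells without LPS (-0.10 ± 0.02, adjusted p = 6.56e-05) and higher with LPS (2.15 ± 0.05, adjusted p = 4.12e-19), with an interaction of 2.26 ± 0.05. Sort1, the sorting receptor sortilin, showed the opposite order, higher without (0.57 ± 0.08) and lower with LPS (-0.56 ± 0.13).

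**Figure D4:**
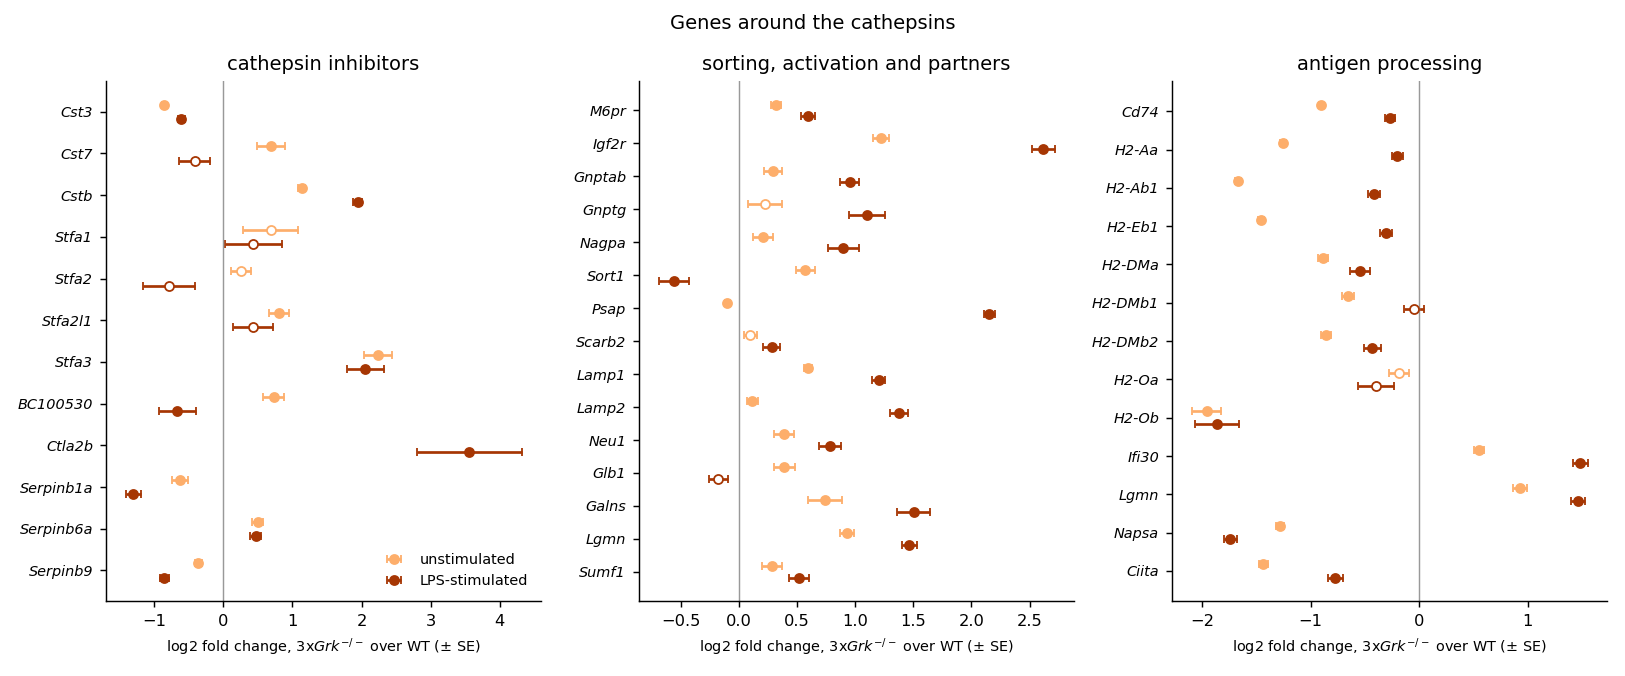
Log2 fold change of 3xGrk-/- over WT BMDCs, unstimulated (light) and LPS-stimulated (dark), for the tested genes of 3 lists: inhibitors, sorting and activation partners, and MHC class II antigen processing. Bars are ± SE and filled points passed an adjusted p of 0.05. The partners lay mostly above 0 and the antigen processing genes mostly below 0, with Ifi30 and Lgmn as the exceptions among the latter.

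Genes of MHC class II antigen processing, on which cathepsins act, went mostly the other way. Of 13 genes, 2 were higher and 10 lower in unstimulated 3xGrk-/- cells, and 2 were higher and 9 lower with LPS, where 22.7% and 24% of all genes were lower, and the median log2 fold change was -0.90 and -0.40. Ciita, the regulator of class II genes, differed by -1.44 ± 0.04 without LPS and by -0.77 ± 0.07 with LPS. The class II gene H2-Ab1 differed by -1.67 ± 0.03 without and -0.42 ± 0.06 with LPS, and the interaction was above 0 for both (0.66 and 1.26). H2-Ob, which encodes a chain of the modulator of peptide loading, differed by -1.96 ± 0.14 without and -1.87 ± 0.20 with LPS. The 2 that rose were Lgmn, given above, and Ifi30, the thiol reductase of lysosomes, with 198 and 188 against 278 and 288 CPM without LPS (0.55 ± 0.05) and 124 and 140 against 376 and 371 CPM with LPS (1.48 ± 0.07, adjusted p = 8.58e-14).

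Markers of several cell types moved with these results, and their part in them was not tested. All 10 dendritic cell and all 12 macrophage markers were detected in every group. The counts of called markers stand against 22.1% of all genes higher and 22.7% lower without LPS and 24.7% and 24% with LPS. The macrophage markers summed to between 1182 and 1186 CPM (WT) and 1916 and 1989 CPM (3xGrk-/-) without LPS, and to 453 and 455 CPM in LPS-stimulated WT and 3006 and 3051 CPM in LPS-stimulated 3xGrk-/- libraries, with 7 of 12 higher and 4 lower in 3xGrk-/- cells without LPS and 12 of 12 higher with LPS. Cd68, which encodes a lysosomal membrane protein of macrophages, was higher by 2.09 without and 3.99 with LPS. The complement genes C1qa, C1qb and C1qc and the Fc receptor gene Fcgr1 were lower without and higher with LPS. The dendritic cell markers, 4 of which are also on the list of antigen processing, summed to 14288 to 14413, 7272 to 7457, 10626 to 11269.6 and 8721 to 8869 CPM in the same order of groups, with 3 of 10 higher and 6 lower without LPS and 2 higher and 8 lower with LPS, where the 2 higher were Itgax (2.34) and Flt3 (1.35). The chemokine receptor gene Ccr7 was higher without LPS (0.24) and lower with LPS (-0.32). Osteoclast markers other than Ctsk summed to 237 to 251 CPM in WT and 557 to 566 CPM in 3xGrk-/- libraries without LPS and to 117 to 126 and 436 to 439.6 CPM with LPS, and 5 of 7 tested genes were higher and 2 lower without LPS and 5 higher and 1 lower with LPS. Acp5 and Atp6v0d2 were higher in both conditions, Nfatc1 was lower in both (-0.40 and -0.68), Itgb3 was lower without LPS (-0.69), and Calcr had no count in 3 of the 4 groups. The markers of stromal cells, which also express Ctsk and Ctsl, summed to between 1.52 and 2.82 CPM in all unstimulated libraries of both genotypes, to 8.82 and 4.74 CPM in LPS-stimulated WT and to 141 and 130.5 CPM in LPS-stimulated 3xGrk-/- libraries. Dcn had no count in unstimulated cells, 2.34 and 1.07 CPM in LPS-stimulated WT and 127 and 113 CPM in LPS-stimulated 3xGrk-/- libraries. Eosinophil markers summed to 889 to 966 CPM in WT and 36.0 to 58.0 CPM in 3xGrk-/- libraries, and neutrophil markers to 711 to 745, 523 to 543, 336 to 392 and 188 to 204 CPM. Mast cell and basophil markers summed to 63.7 to 90.1 CPM in all groups. Of the 5 of them tested between genotypes, 3 were lower and 0 higher in 3xGrk-/- cells, both without and with LPS. Lymphocyte markers summed to at most 1.68 CPM.

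The genes whose pattern over the 8 libraries was most like that of each member were found by the root mean square difference of log2 CPM. Each gene was centred on its own mean, a prior count of 2 was added before taking logs, and 9148 genes with a mean log2 CPM of at least 3 were searched. Ctsk and Ctse themselves lay below this limit, at means of 1.96 and 0.93, where the prior count draws differences towards 0. The nearest were B430306N03Rik for Ctsa (0.0747), Gde1 for Ctsb (0.101), Tollip for Ctsc (0.0400), Fth1 for Ctsd (0.122), Fcgrt for Ctse (0.252), Nup133 for Ctsh (0.0566), Tlr7 for Ctsk (0.194), Pmp22 for Ctsl (0.488), Snx18 for Ctss (0.0646) and Insl6 for Ctsz (0.0661). For Ctsl the next were Ccl2 (0.503) and Gpnmb (0.627), so that its nearest genes were further away than those of the other members. Lgmn was the third nearest gene of Ctss (0.0952). Among the members themselves, the closest pairs were Ctsb with Ctsd (0.307), Ctss with Ctsz (0.352), Ctsd with Ctsk (0.388) and Ctsc with Ctsh (0.447). The value for Ctsd with Ctsk rests in part on the prior count, given the few counts of Ctsk in WT cells. All these values share the same 8 libraries and describe them only.

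Some members overlap other genes, and the strand setting of the counting was not given in the sources used here, although the libraries were made with a stranded kit. Ctsa overlaps Pltp and Neurl2 on the other strand. Pltp, the phospholipid transfer protein gene, had 43 and 61 counts in unstimulated WT and 901 and 971 counts in LPS-stimulated 3xGrk-/- libraries, against 833 and 1151 and 1698 and 1734 for Ctsa, and whether any of these reads were shared was not tested. Fdft1, opposite to Ctsb, had between 117 and 352 counts and was lower in 3xGrk-/- cells, and Nelfcd, opposite to Ctsz, had between 98 and 181 counts. The pseudogene Hmgb1-ps5, within Ctss on the same strand, had at most 10 counts. Ctsl also overlaps Gm49230 on the same and Gm47123 on the other strand, and Ctsd overlaps Gm49369 on the same strand, and these 3 genes were not analysed here.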

How the data were processed

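RNA of 8 BMDC libraries was analysed, 2 for each group of genotype and stimulation, as the labels give them. Per its methods the study used snakePipes 2.1.0, STAR 2.7.3a and featureCounts 2.0.0 with build GRCm38; annotation release and strand setting are not given in the sources used here. The authors deposited whole-number counts of reads per gene, without normalization, in separate tables for unstimulated and LPS-stimulated cells; no column was left without a sample. Gene names came from GENCODE M21 on GRCm38 (47310 of 47937 IDs matched; 0.0468% of counts on the others).

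Genotypes were compared within each table and LPS responses and their interaction in one fit of 8 libraries with edgeR 4.0.16 in R 4.3.3 (TMM, filterByExpr, glmQLFit, glmQLFTest, Benjamini-Hochberg over all genes, threshold 0.05), tested on simulated data. SE is the log2 fold change divided by the square root of F. CPM are TMM-scaled over 8 libraries; lengths are those of the longest principal transcript with a RefSeq match, chosen after seeing the data. Errors cover the spread between these libraries only, and 2 libraries against 2 cannot give an exact two-sided permutation p below 0.333.

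Members, lists and tests were chosen with earlier results of these data known. Besides the 10 members, the rule names the Grk genes, per list up to 4 called genes with the largest genotype change at a mean log2 CPM of at least 3, genes called in opposite directions with and without LPS, and the nearest genes in pattern; not all of these are printed, and most of the marker genes stand only in their sums and counts. Gm42418, Dcn, Calcr, Ctsf, Ctsg, Nfatc1, Itgb3 and genes that overlap members were named after their values were seen. Alternatives were DESeq2 1.42.0, other scalings and filters, a replicate block, a fixed spread, one fit for all libraries, each library left out and, added later, exon-union lengths.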

Additional observations from a re-analysis of the deposited data

Results flagged for a closer look

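For 7 of 10 cathepsin genes, against 32.5% of the 12541 genes tested (16.5% in this direction), the effect of the genotype differed with LPS from that without LPS in edgeR's interaction test, each time in the direction of a higher value in LPS-stimulated 3xGrk-/- cells. On the log2 scale the difference was 1.96 for Ctsl, 1.76 for Ctsb, 0.95 for Ctsa, 0.76 for Ctsd, 0.55 for Ctss, 0.48 for Ctsc and 0.47 for Ctsh. LPS and the deposited table coincide, so that the stimulation and any difference between tables cannot be told apart. None of the 7 passed with the biological coefficient of variation set to 0.4.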

How the results depend on the processing

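Among 669 alternative values of tests on single cathepsin genes, 618 kept their direction and side of the threshold, 33 missed it, 7 newly passed it and 11 changed sign. With the biological coefficient of variation at 0.4, the cathepsin genes called higher and lower between genotypes were 3 and 1 without LPS and, higher, 4 with LPS, those called for the response to LPS were 0 and 0 in WT and 1 and 0 in 3xGrk-/- cells, and those for the interaction 0, while all genes gave 195 and 253, 569 and 213, 451 and 659, 552 and 298, and 61 and 11. DESeq2 called 1569 genes higher and 1517 lower without LPS, 1845 lower with LPS, and 1342 and 1301 for the interaction. Scaling by library size only gave 2443 genes higher in WT and 2245 higher and 5200 lower in 3xGrk-/- cells after LPS, with 7 cathepsin genes lower in WT cells, and summed cathepsin levels of 4142, 8777, 4538 and 16016 CPM. A minimum of 10 counts in every library left 1 cathepsin gene lower without LPS, since Ctse was not tested, and without the filter, or in the fit of all 8 libraries, 1 (Ctse) was lower with LPS. Values near 0 changed sign. With library size only, the response to LPS in WT cells was -0.16 for Ctsc, -0.20 for Ctsd and -0.20 for Ctsl, and in 3xGrk-/- cells -0.11 for Ctsa. With at least 10 counts, it was -0.0149 in WT cells for Ctsd and -0.0133 for Ctsl. Leaving out a library gave -0.0072 to 0.0490 for Ctsd (below 0 without WT unstimulated replicate 1 or, at -0.0038, WT LPS replicate 2), -0.0212 to 0.0637 for Ctsl (below 0 without WT unstimulated replicate 1), -0.60 to 0.13 for Ctsk (above 0 without WT unstimulated replicate 2) and, for the interaction of Ctsz, -0.0233 to 0.0719 (below 0 without WT LPS replicate 1). Over all such fits, genes called higher and lower ranged from 2097 to 2410 and 2156 to 2378 without LPS, 2365 to 3000 and 2095 to 2712 with LPS, 3170 to 3730 and 3247 to 3871 for LPS in WT, 3024 to 3776 and 2806 to 3634 for LPS in 3xGrk-/- cells, and 1716 to 2088 and 1575 to 2111 for the interaction. Of the cathepsin genes these were 8 and 2, 8 to 9 and 0 to 1, 2 and 3 to 4, 7 to 8 and 1, and 7 and 0. The causes of these shifts were not tested. Ctsa passed for LPS in 3xGrk-/- cells without either WT LPS library (adjusted p = 0.0439 each) or without 3xGrk-/- LPS replicate 2 (0.0475, edgeR). Differences between same-numbered replicates correlated at -0.02 to 0.03 over 12471 genes. This does not exclude a batch shared by replicates of the same number, and Gm42418 took more of the counts in replicate 2 of every group. With a replicate block, 8 and 2, 8 and 0, 2 and 4, 7 and 1, and 7 and 0 cathepsin genes were called. Of all genes, this block gave 2628 and 2664 without and 2883 and 2771 with LPS. Ctsk and Ctse, with under 100 counts in every library, are limited by depth.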
